A study of Homo sapiens with 2 samples.

Results

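Small nucleolar RNAs (snoRNAs) and small Cajal body RNAs (scaRNAs) are short nuclear non-coding RNAs, and the deposited list of CRTC2-associated RNA peaks assigned 1612 of its 175546 peaks (0.918%) to genes of these classes. They were taken as every peak whose gene symbol began with SNORA, SNORD or SCARNA, whatever its width or annotation, and were split into 70 peaks that shared at least 1 base with the assigned gene and 1542 that shared none. The peaks fell on 248 symbols with 253 gene identifiers, 707 peaks on SNORA, 672 on SNORD and 233 on SCARNA genes. The rule used the symbol and the position and no measured value, but it was chosen with earlier results of these data known.

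The study precipitated RNA with CRTC2, which coactivates the transcription factor CREB, from HCCLM3 cells, an established human hepatocellular carcinoma line of genotype WT. RNA immunoprecipitation sequencing (RIP-seq) gave 1 CRTC2 RIP library, which was compared with 1 input library from the same line, and neither had a replicate. The stated aim was to find RNA targets of CRTC2 in connection with its condensates with YTHDF2, a reader of N6-methyladenosine in mRNA. There is no precipitation with a control antibody, so bound RNA and carried-over RNA cannot be told apart. Of 8 liver markers, 7 had an assigned peak, where 71.4% of protein-coding genes had one, and SERPINA1 had none.

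Box C/D snoRNAs (SNORD genes) guide 2′-O-methylation, mainly of ribosomal RNA, and H/ACA snoRNAs (SNORA genes) guide pseudouridylation. scaRNAs carry box C/D or H/ACA motifs, or both, and direct the same modifications on the small nuclear RNAs of the spliceosome in Cajal bodies. In human cells most of these RNAs lie in introns of other genes, called host genes, and are cut from the spliced-out intron. A few snoRNAs act in cleavage of the ribosomal RNA precursor in place of modification, and others have no known target.

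Some snoRNA and scaRNA genes also hold microRNA hairpins. In RefSeq, SNORA36A holds a hairpin whole, and others partly overlap SNORA36B, SNORA2C and SCARNA3. The mature RNAs are shown because a peak reached into SNORA36A but stopped before its hairpin; capitals mark the seed (bases 2 to 8), and sequences are RefSeq's (GRCh38.p14).
hsa-miR-664b-5p: uGGGCUAAgggagaugauugggua
hsa-miR-664b-3p: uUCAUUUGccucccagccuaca
hsa-miR-664a-5p: aCUGGCUAgggaaaaugauuggau
hsa-miR-664a-3p: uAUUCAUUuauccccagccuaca
hsa-miR-1291: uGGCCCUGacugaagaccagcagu
hsa-miR-1843: uAUGGAGGucucugucuggc
The SNORA36A hairpin (MIR664B, chrX:154768596-154768656, plus strand) lay 38 bp beyond the end of that peak, which covered 31 bases at the 5′ side of the snoRNA with a fold of 1.71 on 17 RIP fragments. Between the summit of that peak and the gene lay 107 bases, so this fold was not measured on the snoRNA. No peak lay on the hairpins of SNORA36B (MIR664A, chr1:220200538-220200619, minus strand) or SNORA2C (MIR1291, chr12:48654444-48654530, minus strand), whose nearest assigned peaks were 225 and 357 bp away. The hairpin of SCARNA3 (MIR1843, chr1:175968370-175968479, minus strand) lay 16541 bp from the nearest peak assigned to SCARNA3 and carried 1 peak assigned to another gene. That peak was 15905 bp wide and rested on 1 RIP fragment, with a fold of 1.94. The 6 mature RNAs had 6 different seeds, and the list gives no value for a mature microRNA.

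Most peaks assigned to a snoRNA or scaRNA did not touch it. The gene was overlapped by 70 of 1612 peaks (4.34%, exact Clopper-Pearson 95% interval 3.40 to 5.45), among them 35 of 672 for SNORD (5.21%, 3.65 to 7.17), 9 of 233 for SCARNA (3.86%, 1.78 to 7.21) and 26 of 707 for SNORA (3.68%, 2.42 to 5.34). Seen by gene, 69 of 253 identifiers (27.3%, 21.9 to 33.2) had an overlapping peak. The other 1542 peaks lay a median of 5757 bp from the gene (quartiles 1267 and 18222, from 5 to 137579), 857 of them downstream and 685 upstream. The intervals cover counting error alone.

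Overlapping peaks differed little in fold from the rest. The fold is the authors' linear ratio of RIP over the peak caller's input level at the summit of a peak. Its median was 1.94 over the 70 overlapping peaks (quartiles 1.83 and 2.76, 95% interval of the median 1.84 to 2.31) and 1.84 over the 1542 others (quartiles 1.69 and 2.26, interval 1.84 to 1.86), against 1.89 over all peaks of the list. A false discovery rate q of at most 0.05 was reached by 4 of 70 overlapping peaks (5.71%, 1.58 to 13.99) and by 27 of 1542 others (1.75%, 1.16 to 2.54), where the whole list had 1.63%. The interval of the overlapping peaks includes the share of the whole list, and without the SNORD116 array their share was 3.57% (2 of 56). With 1 library on each side no test across samples exists, and these are descriptions of a single pair of libraries.

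**Figure D1:**
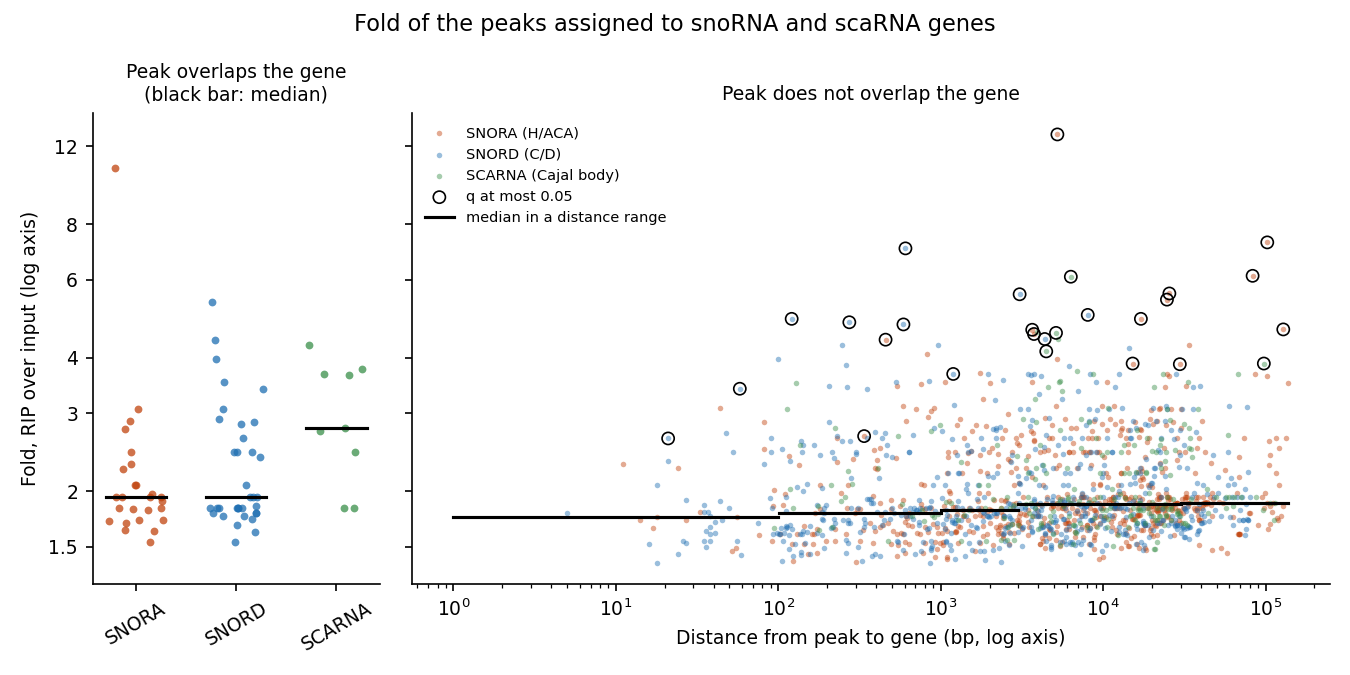
Fold of RIP over input (log axis) of each of the 1612 peaks, by gene family for the 70 that overlap the gene (left) and by distance in bp, on a log axis, for the 1542 that do not (right); circles mark non-overlapping peaks at q of at most 0.05. Medians in the distance ranges lie between 1.76 and 1.89, and peaks at q of at most 0.05 are found from 21 to 128660 bp away.

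The counts behind these folds were small. At overlapping summits the median was 3 RIP fragments, with quartiles of 2 and 5, at an input level of 0.634, which is what 1 input fragment counts after scaling, and 16 of 70 rested on 1 fragment. Levels below 0.634, down to a floor of 0.0298, are less than 1 input fragment. They are thus background values of the caller and not input counted at the summit. At the floor, 1 RIP fragment gives a fold of 1.94, which is also the median fold of the overlapping peaks. Peaks within 100 bp of the gene that did not touch it were the deepest, with a median of 21 fragments at an input level of 10.8 over 57 peaks. From there to 1000 bp the median was 9 fragments at 3.80 over 278 peaks, and beyond 30000 bp it was 2 fragments over 199 peaks. Summits just beside these genes were thus covered more deeply than summits on them, in the RIP and in the input alike. At the same input level of 0.634, overlapping peaks held a median of 2.5 RIP fragments (18 peaks) and those with the summit in the gene 3 (14 peaks), beside other assigned summits 3 (122 peaks) and all summits of the list 3 (17551 peaks).

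**Figure D2:**
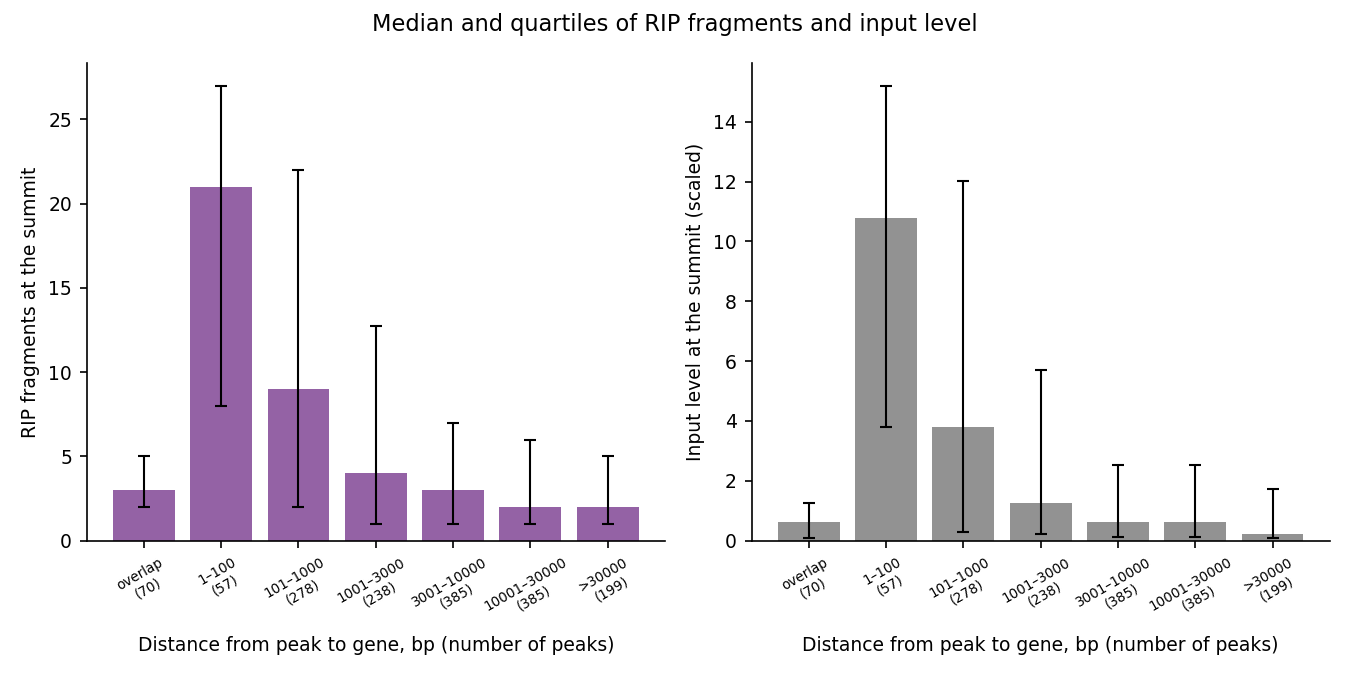
Median RIP fragments at the summit (left) and median input level (right, scaled to RIP depth) for peaks that overlap the gene and for peaks in ranges of distance from it; whiskers are quartiles and the number of peaks is in brackets. Both measures peak at 1 to 100 bp from the gene, with 21 RIP fragments and an input level of 10.8, against 3 and 0.634 on the gene.

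Overlap with the gene did not always place the summit on it. The summit lay inside the gene in 38 of 70 overlapping peaks (54.3%, 41.9 to 66.3), with a median fold of 2.28 (interval 1.84 to 2.73), and outside in 32, with a median of 1.94 (1.84 to 1.97). Since the fold is measured at the summit, the folds of those 32 peaks describe RNA beside the snoRNA. A width of up to 1 kb was found for 58 of the 70 peaks, and 9 were wider than 10 kb, 7 of these on 1 fragment. The gene was spanned whole by 19 peaks, and 23 lay wholly inside it.

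The 9 overlapping peaks of scaRNA genes lay wholly inside the gene, each on a different scaRNA, and their median fold was 2.78 (quartiles 2.45 and 3.67, interval 1.84 to 3.77). Overlapping SNORD peaks had a median of 1.94 (1.84 to 2.45) and SNORA peaks of 1.94 (1.82 to 2.07), and the intervals overlap. Many of those summits lay outside the gene, whereas the scaRNA summits all lay inside. For SNORD and SNORA peaks with the summit inside the gene, the medians were 2.07 (1.79 to 2.87) and 2.07 (1.64 to 2.77). The median was 1.89 for the 224 SCARNA peaks that did not overlap. SCARNA13 (chromosome 14, 95533533 to 95533611), an H/ACA scaRNA encoded in SNHG10, reached 4.28 (exact Poisson interval 1.96 to 8.61) on 6 fragments. SCARNA8 (chromosome 9, 19063750 to 19063784) reached 3.77 (1.53 to 9.21) on 3 fragments and, at an input level of 0.0609, a −log10 q of 1.57, past the limit that SCARNA13 missed with 0.893. SCARNA22 (chromosome 4, 1974651 to 1974753), in an intron of the histone methyltransferase gene NSD2, and SCARNA18 (chromosome 5, 83064289 to 83064321) stood at 3.67 each, on 5 and 3 fragments. These 4 were the highest of the family, and their intervals overlap.

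The folds of the remaining 5 scaRNAs ran from 1.84 to 2.78. SCARNA15 (2.78, on 2 fragments) and SCARNA5 (2.73, on 2) had intervals above 1. Their input levels of 0.0786 and 0.0982 were below that of 1 input fragment. SCARNA2 (2.45, on 3), SCARNA7 (1.84, on 9) and SCARNA6 (1.84, on 2) had intervals that reached below 1. All these intervals hold the input level fixed and leave out its error. SCARNA2 is transcribed from its own promoter, whereas SCARNA5 and SCARNA6 share the host ATG16L1, an autophagy gene.

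Among overlapping box C/D snoRNAs with the summit in the gene, SNORD116-1 and SNORD22 were highest. SNORD116-1 reached 4.396 (1.84 to 9.88) on 4 fragments, with a −log10 q of 1.65. SNORD22 (chromosome 11, 62852943 to 62853091), which is needed for maturation of small-subunit ribosomal RNA, reached 3.97 (1.96 to 7.39) on 8 fragments at an input level of 1.27 and missed the q limit. Its neighbours in the host SNHG1 were lower, SNORD25 at 2.87 on 3 fragments and SNORD27 at 2.07 on 5. A peak assigned to SNORD109B (chromosome 15, 25041975 to 25042029) stood at 3.40 on 3 fragments, but RefSeq places the near-identical copy SNORD109A there, so its reads are of uncertain origin. SNORD104 (chromosome 17, 64145975 to 64146436) stood at 3.53 on 7 fragments in a peak that spanned the gene, with 82 bases between the summit and the gene.

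H/ACA snoRNAs had 11 peaks with the summit in the gene, leaving out 1 peak whose identifier belongs to a protein-coding gene. Their median fold was 2.07 (interval 1.64 to 2.77), beside 2.07 (1.79 to 2.87) over 17 such SNORD peaks. Of the 11, 0 reached the q limit, which allows a share of up to 28.5%, where the whole list had 1.63%. SNORA44 was highest at 3.06 (1.28 to 6.88) on 4 fragments, followed by SNORA53 at 2.77 (1.32 to 5.34) on 7. The peak with the highest fold of any overlapping peak, 10.7 (5.63 to 18.8) on 10 fragments with a −log10 q of 17.3, was assigned to SNORA54, but it was 11994 bp wide (chromosome 11, 2959000 to 2970993) and its summit lay 4039 bases from the 5′ end of that snoRNA of 123 bases. That fold was not measured on SNORA54. The peak of SNORD116-23 at 5.34 (2.33 to 11.3) likewise covered 32 bases of the gene, with 98 bases between the summit and the gene.

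**Figure D3:**
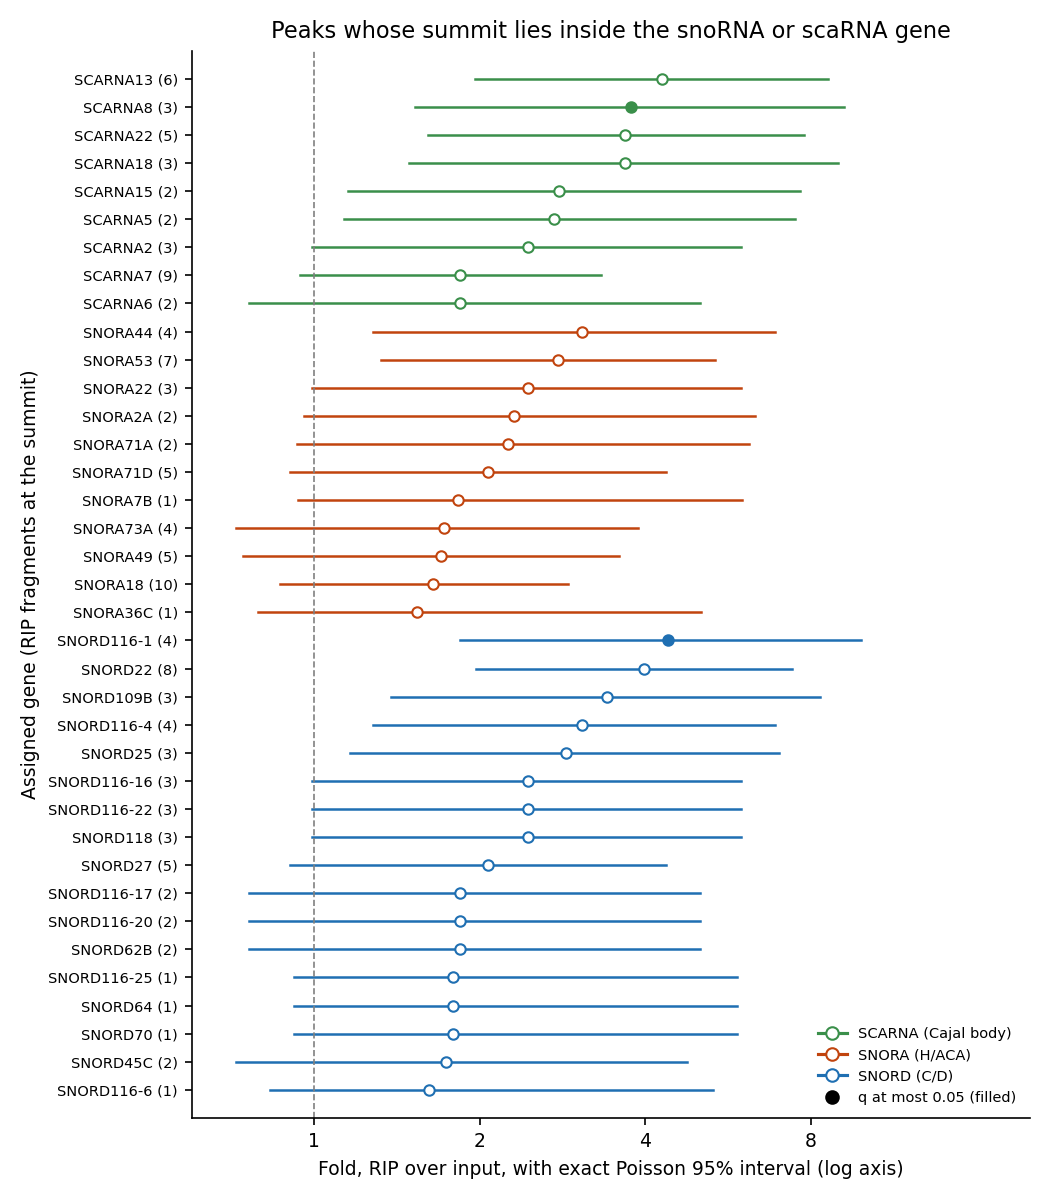
Fold of RIP over input (log axis) with exact Poisson 95% intervals for the 37 peaks whose summit lies inside a snoRNA or scaRNA gene, sorted by family and fold, with RIP fragments in brackets; filled points are at q of at most 0.05. SCARNA8 and SNORD116-1 are filled, and many intervals, which hold the input level fixed, reach below 1.

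Summits inside the genes lay toward the 5′ end. Leaving out 1 peak whose identifier belongs to a protein-coding gene, 37 summits lay a median of 28 bases from the 5′ end (quartiles 23 and 47), or at 0.22 of the gene length. The first 50% of the gene length held 30 of 37 (81.1%, 64.8 to 92.04), and the first 25% held 22 (59.5%, 42.1 to 75.2). By family the first 25% held 6 of 9 for SCARNA, 9 of 11 for SNORA and 7 of 17 for SNORD. Among peaks assigned to microRNA genes, 8 summits lay inside the gene. The first 50% held 7 of these 8 (87.5%, 47.3 to 99.7) and the first 25% held 3 (37.5%, 8.52 to 75.5). These microRNA intervals include the shares of snoRNAs and scaRNAs, and also 50% and 25%. With 8 summits, whether a place toward the 5′ end is particular to snoRNAs and scaRNAs cannot be told. A fragment was placed as 31 bp by the caller, and each summit rests on 1 to 10 fragments.

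**Figure D4:**
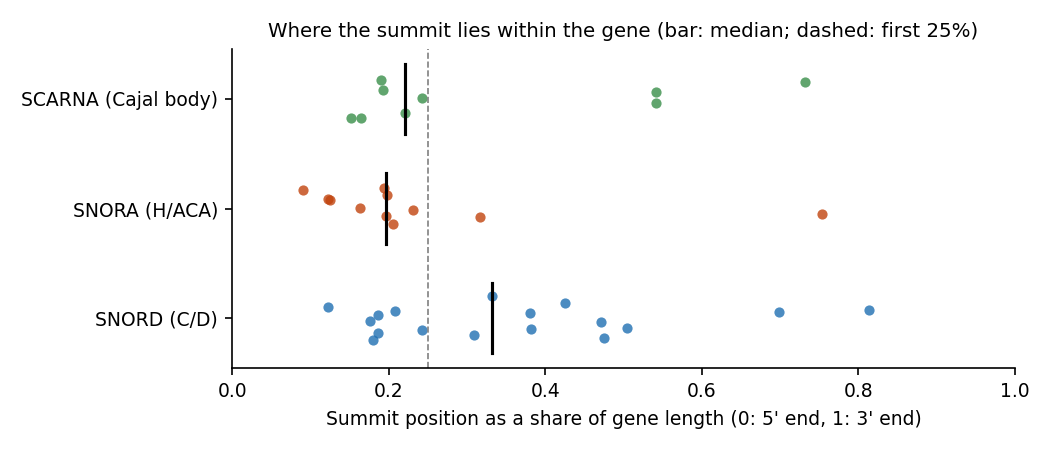
Position of the 37 summits along the gene, as a share of its length from the 5′ end (0) to the 3′ end (1), by family; each point is a peak, the bar is the family's median and the dashed line the end of the first 25%. In all, 22 of 37 summits lie left of the dashed line and 30 of 37 in the first 50%.

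The edge of the overlap rule separated peaks of similar fold but mostly unlike depth. The peaks that shared fewest bases with the gene were those of SNORD108 (6 bases, 1.84-fold), SNORD116-18 (13 bases, 2.39), SNORA59A (28, 1.84), SNORD25 (28, 2.87) and SNORD10 (28, 1.83). They rested on 2, 2, 2, 3 and 31 RIP fragments, and only that of SNORD25 had its summit in the gene. The nearest peaks that shared none were those of SNORD13 (5 bp away, 1.79-fold), SNORA4 (11 bp, 2.31), SNORA48 (14 bp, 1.73), SNORD19 (16 bp, 1.52) and SNORA10 (17 bp, 1.65). These rested on 1, 13, 27, 15 and 31 fragments.

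Most exon and intron peaks that did not overlap lay in host genes. Of 810 such peaks in exons or introns, 734 (90.6%, 88.4 to 92.5) lay in a gene that spans the assigned snoRNA or scaRNA. Their median fold was 1.87 on 2 fragments, and 14 of the 734 reached the q limit (1.91%, 1.05 to 3.18), near the 1.63% of the whole list. Of the 76 peaks in genes that do not span it, 0 reached the limit, which allows a share of up to 4.74%. The deposited annotation puts each peak with the nearest start site, and 58 identifiers with at least 10 peaks held 1033 of the 1612 peaks (64.1%). For 47 of these 58, the exon and intron peaks lay in a single annotated gene.

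The genes with most peaks lay in long host genes. SNORA49 had 49 peaks, 43 of them in EP400, a chromatin remodelling ATPase, and 1 overlapped the snoRNA (1.70-fold). SNORA59A had 47 peaks over 2 identifiers, of which RefSeq gives 1 to SNORA59B, and 24 exon and intron peaks lay in VPS13D. SNORA70B had 43 peaks, all 43 in the deubiquitinase gene USP34 and none on the snoRNA. SCARNA22 had 36, with 18 in NSD2, and SNORA80A had 35, with 30 in URB1, a ribosome biogenesis factor. The 5 peaks farthest from their gene were all assigned to SNORA59A and lay in exons 54 to 58 of VPS13D, 124063 to 137579 bp away, with folds from 1.76 to 4.64.

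Regions differed as the annotation defines them. The promoter class takes every peak within 3000 bp of a start site, so 69 of 70 overlapping peaks were promoter peaks and 1 was in a 3′ UTR. Of the 1542 others, 36.7% were in promoters, 29.96% in exons, 22.6% in introns and 8.30% in 3′ UTRs, against 20.9%, 30.4%, 26.6% and 13.8% of all peaks. Among promoter peaks within 1 kb of a start site, q of at most 0.05 was reached by 4 of 69 overlapping peaks (5.80%) and by 8 of 324 others (2.47%), where all such peaks of the list had 2.16%.

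The 31 peaks at q of at most 0.05 belonged to 25 genes and lay in 13 promoters, 12 exons, 4 3′ UTRs and 2 introns. Their median fold was 4.64 on a median of 7 fragments. The highest fold not overlapping was 12.7 (7.48 to 20.5), in exon 10 of 16 of the histone chaperone gene NAP1L4, assigned to SNORA54 from 5232 bp away and next to the wide peak described above. In USP34, exon 25 of 80 reached 7.28 (3.94 to 12.5) on 11 fragments and exon 19 reached 6.12 (3.13 to 11.1) on 9, at 102522 and 83270 bp from SNORA70B. Exon 10 of 32 of the condensin gene NCAPD2, assigned to SCARNA10, reached 6.09 (3.21 to 10.7) on 10 fragments.

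Exons of other hosts followed. IPO7, an import receptor gene that hosts SNORA23, reached 4.53 (2.66 to 7.28) in exon 11 of 25 on 15 fragments. Exon 56 of 70 of VPS13D stood at 4.64 on 4 fragments. SNORA79 drew 2 peaks in 3′ UTRs, at 5.41 on 11 fragments and 5.59 on 7, and a peak at 4.90 in exon 9 of 10 of GTF2A1, a subunit of the general transcription factor TFIIA. SNORA14A was given an intron peak of POR at 3.88, which was 12799 bp wide and rested on 3 fragments at the lowest input level of 0.0298, and SCARNA23 a peak of the same fold in POLA1, 45316 bp wide.

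Peaks past the q limit within 1 kb of the gene held a median of 6.5 fragments, and those over 3 kb away held 7. A peak 607 bp from SNORD73A, which lies in the ribosomal protein gene RPS3A, reached 7.06 (4.54 to 10.5) on 22 fragments (chromosome 4, 151104498 to 151104576). A peak 58 bp from SNORD56, which lies in the gene of the snoRNP core protein NOP56, reached 3.41 (2.23 to 5.004) on 24 fragments. SNORD34, in RPL13A, had a peak 21 bp away at 2.63 (1.80 to 3.72) on 30 fragments. Of the 31 peaks, 12 lay within 1 kb of the gene, overlapping ones included, and 18 lay over 3 kb away.

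The SNORD116 array held 14 of the 70 overlapping peaks. It is a row of near-identical box C/D genes in the imprinted Prader-Willi region, within introns of SNHG14, and has no established ribosomal RNA target. In all, 59 peaks were assigned to 26 copies, and 14 copies were overlapped. The copies lie on chromosome 15 from 25051476 to 25108352, and 11 of the 59 peaks lay outside this range, 7 before it and 4 after it. The 14 overlapping peaks had folds from 1.62 to 5.34 with a median of 2.42 (interval 1.79 to 3.06), and the 45 others from 1.64 to 4.81 with a median of 1.85 (1.82 to 2.55). The intervals overlap. The q limit was reached by 2 of 14 (14.3%, 1.78 to 42.8), SNORD116-23 and SNORD116-1. It was reached by 2 of the 45 others (4.44%, 0.543 to 15.1), where the whole list had 1.63%. The latter were a peak 274 bp before SNORD116-28 (4.81, on 4 fragments) and one 590 bp before SNORD116-1 (4.76, on 6).

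Fragments on the array were few and cannot be tied to a copy. The 59 peaks held 1 to 6 fragments, and the summit lay inside the gene in 8 of 14 overlapping peaks. Since the copies are near identical, a read may belong to another copy than the one it was placed on, and how such reads were placed is not given in the sources used here. A peak in intron 15 of 147 of SNHG14, 3063 bp from SNORD108, reached 5.56 (2.43 to 11.7) on 5 fragments. The peak on SNORD108 itself stood at 1.84 on 2 fragments. The imprinted genes together, 31 symbols, had 100 peaks, 17 of them overlapping (17%, 10.2 to 25.8, where all 1612 peaks had 4.34%). The q limit was reached by 5 (5%, 1.64 to 11.3, where the whole list had 1.63%).

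**Figure D5:**
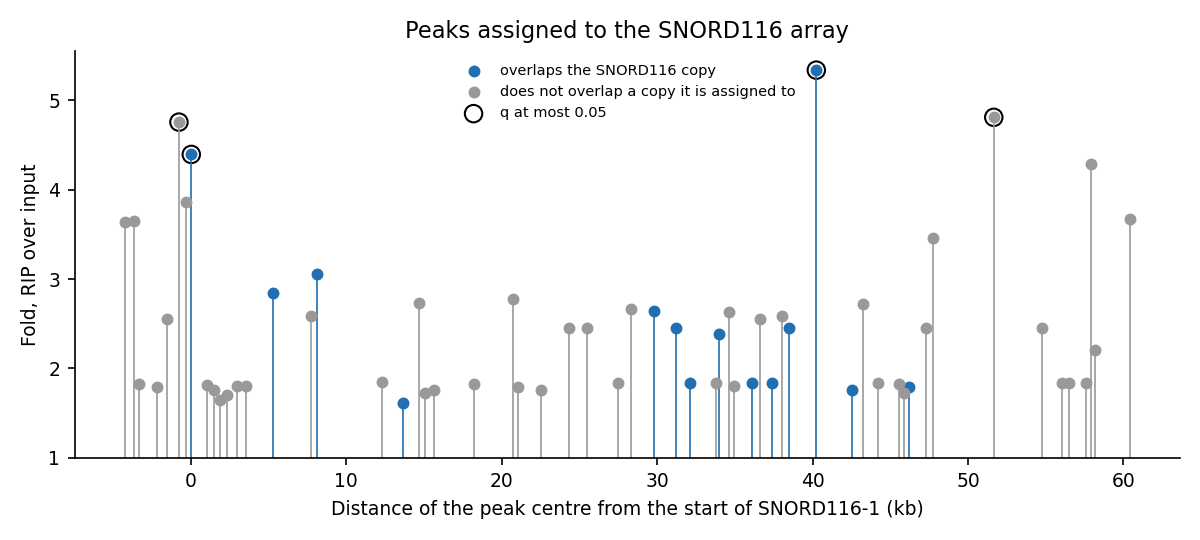
Fold of RIP over input of the 59 peaks assigned to SNORD116 copies, by distance of the peak centre from the start of SNORD116-1 in kb; blue peaks overlap the copy they are assigned to, grey ones do not, and circles mark q of at most 0.05. Overlapping peaks run from 1.62 to 5.34 and the others from 1.64 to 4.81.

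The other imprinted arrays had no narrow peak on any copy. All 40 SNORD113 and SNORD114 copies and all 48 SNORD115 copies in RefSeq were covered by some peak of the list, but 0 of 40 and 0 of 48 by a peak up to 1 kb wide, whereas 14 of 30 SNORD116 copies had one (46.7%, 28.3 to 65.7). The 40 SNORD113 and SNORD114 copies lay under 1 and the same peak, which was 940775 bp wide and rested on 1 RIP fragment.

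Of 15 listed snoRNAs that act in ribosomal RNA processing, 9 had 17 assigned peaks. Of the 17, 0 reached the q limit, which allows a share of up to 19.5%, where the whole list had 1.63%. The gene was overlapped by 3 of the 17 (17.6%, 3.80 to 43.4, where all 1612 peaks had 4.34%), on 3 of the 9 symbols. Besides SNORD22, these were SNORD118, the U8 snoRNA of large-subunit maturation, at 2.45 (0.991 to 5.98) on 3 fragments, and SNORA73A, the U17 snoRNA, at 1.72 (0.720 to 3.88) on 4. The best covered were peaks beside the SNORD14 copies in the chaperone gene HSPA8, such as one 48 bp from SNORD14D at 2.71 (1.77 to 3.97) on 24 fragments. Of 15 orphan or disease-linked snoRNAs, 6 had 48 peaks, with 3 on the gene (6.25%, 1.31 to 17.2, where all 1612 peaks had 4.34%). SNORA7B (1.82-fold) rested on 1 fragment, SNORD52 (2.91-fold) lay under a peak 87993 bp wide, and SNORA23 (1.63-fold, 13 fragments) had its summit outside the gene. The q limit was reached by the IPO7 peak and no other of the 48 (2.08%, where the whole list had 1.63%).

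snoRNAs in SNHG genes and GAS5, which are host genes known mainly for their snoRNAs, had 150 peaks on 54 symbols. Of these, 29 overlapped the gene (19.3%, 13.3 to 26.6), where all 1612 peaks had 4.34%. The q limit was reached by 6 (4%, 1.48 to 8.50), and the interval includes the 1.63% of the whole list. The group includes the SNORD116 array with its 14 overlapping peaks. SCARNA13, SNORA44, SNORD22 and the SNORA71 family belong to it, and SNORA71D carried a peak 458 bp upstream at 4.396 on 4 fragments that reached the q limit, beside 2.07 on 5 fragments on the gene.

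Transcripts of snoRNP proteins carried exonic peaks, counted from the gene named in the exon annotation. Of 21 protein genes 18 had one (85.7%) and 2 reached the q limit (9.52%), against 49.2% and 6.57% of protein-coding genes. The comparison takes all 20056 protein-coding genes and was not matched for expression. The snoRNP list also held TERC, an RNA, which had no exonic peak. SHQ1, an assembly factor of H/ACA particles, stood at 3.78 (1.53 to 9.22) on 3 fragments, in a wide peak (chromosome 3, 72812730 to 72816774). ZNHIT3, an assembly factor of box C/D particles, stood at 4.86 (2.03 to 10.9) on 4 fragments. Its peak was also wide and lay on an alternative contig (731021 to 743487). Of the core proteins, the methyltransferase FBL stood at 2.13 (1.34 to 3.23) on 20 fragments and GAR1 at 3.04 (1.23 to 7.43) on 3, while DKC1, NOP10 and NOP56 had no exonic peak. This does not mean that their genes held no peak, since peaks near a snoRNA start count as promoter. DKC1 and NOP10 had 2 assigned peaks each, and the peak beside SNORD56, in NOP56, reached 3.41 on 24 fragments. Of 45 genes listed as hosts 12 had an exonic peak (26.7%) and 2 reached the q limit (4.44%), against the same 49.2% and 6.57%. Those 2 were NAP1L4 and the kinase gene PRKDC (4.14, 2.24 to 7.13, on 11 fragments). RefSeq places no snoRNA or scaRNA gene in PRKDC, so it is a host by the list alone. A peak of a short gene is mostly called promoter and is not counted as exonic, and 38 of the 45 had an assigned peak of any class (84.4%), where 71.4% of protein-coding genes had one.

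Taken from the RefSeq side, 86 of 568 snoRNA and scaRNA genes (15.1%, 12.3 to 18.4) were overlapped by a peak up to 1 kb wide, whatever gene it was assigned to. The share was 44.8% (13 of 29, 26.4 to 64.3) for SCARNA, 16.5% (30 of 182, 11.4 to 22.7) for SNORA and 12.04% (43 of 357, 8.86 to 15.9) for SNORD genes. The SCARNA interval lies above those of both snoRNA families. Gene length moved with this order, with medians of 148, 134 and 81 bases, and its part in the shares was not tested. A peak of any width overlapped 266 genes (46.8%), among them all SNORD113, SNORD114 and SNORD115 copies, none of which had a narrow peak.

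Peaks assigned to microRNA genes, which are also short and often intronic, overlapped their gene about as often but in another way. Of 3709 such peaks, 190 overlapped (5.12%, 4.44 to 5.88). The summit lay inside the gene in 8 of 190 (4.21%, 1.84 to 8.13), against 38 of 70 for snoRNAs and scaRNAs, and 146 of 190 were wider than 10 kb, against 9 of 70. At q of at most 0.05 were 5 of 190 (2.63%, 0.860 to 6.03) and 61 of 3519 others (1.73%).

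Symbols in the list did not always match the identifiers. All 253 identifiers were found in RefSeq, 229 as snoRNA and 20 as other non-coding RNA, which is how scaRNAs are classed. The other 4 belonged to genes of other classes under scaRNA or snoRNA symbols, with 1 peak each, and 2 of these peaks, those of TRO and SSX2B, overlapped the gene. A further 1372 peaks have no symbol but a RefSeq snoRNA identifier, 71 of them overlapping the gene and 22 at q of at most 0.05 (1.604%), and are not among the 1612. The list gives no strand, so reads of a snoRNA, of its host intron and of an antisense transcript cannot be told apart.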

How the data were processed

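A single CRTC2 RIP library and 1 input library of HCCLM3 cells were compared through the peak list the authors deposited. Per the labels' protocols, a Magna RIP kit gave the RNA and a SMARTer stranded kit the libraries. HISAT2, MACS2 and hg38 are named per the submitters' processing notes (versions: not given in the sources used here). Each fold (a ratio at the summit, taken as RIP over input), the score, the summit and the annotation are as deposited, per the file headers. The deposited −log10 p and −log10 q values were identified by place and value, because their headers are damaged.

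RIP fragments and the caller's input level at each summit were recovered from the deposited fold and p-value, with a pseudocount of 1 (100% of peaks met within 0.001, 97.5% with a single solution; the closest was taken otherwise). The recovery was tested on simulated data. Library totals are unknown. Intervals are exact Poisson (folds), Clopper-Pearson (shares) and order-statistic (medians) at 95%, and cover counting error only. Those of the folds hold the input level fixed, so they cover the error of the RIP count and none of the input. Peak positions are hg38 and counted from 1; RefSeq genes are GRCh38.p14. Overlap means at least 1 shared base. microRNA peaks were restricted to RefSeq microRNA identifiers of at most 200 bp after longer ones were seen. Python 3.11.15, pandas 2.3.3 and SciPy 1.17.1 were used.

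The members, the gene lists and the naming rule were chosen with earlier results of these data known. The rule named the 10 overlapping and 5 other peaks of highest fold, up to 15 peaks at q of at most 0.05, the 5 genes with most peaks, the peaks at the edges of the overlap rule, and up to 4 members of each list. Other genes, among them the remaining scaRNAs and other peaks past the q limit, were named after their values were seen. Some named genes are left out. No p-value was computed, since each group has 1 library.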

Additional observations from a re-analysis of the deposited data

How the results depend on the processing

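No paired analysis was possible because each group has 1 library and no result comes from a test across samples. The alternatives were peaks up to 1 kb wide, no alternative contigs, 1 peak per gene, at least 5 RIP fragments, other overlap rules, no SNORD113 to SNORD116 arrays and other call limits. Leaving out identifiers of other gene classes, and keeping promoter peaks within 1 kb that are up to 1 kb wide, were added after the data were seen. Of 57 alternative values 41 stayed close to the reported value and 16 moved. The number of peaks (1612) was 253 with 1 peak per gene and 686 with at least 5 fragments. The overlap share (4.34%) was 27.3% by gene, 2.92% with at least 5 fragments, 2.36% with the summit in the gene, 7.88% within 100 bp and 12.9% among peaks at q of at most 0.05. The median fold of overlapping peaks (1.94) was 4.87 at q of at most 0.05. That of the other peaks (1.84) was 2.45 with 1 peak per gene, 1.91 with at least 5 fragments, 4.64 at q of at most 0.05 and 1.77 for narrow promoter peaks. At a −log10 q of at least 5 the called share was 1.43% for overlapping peaks and 0.195% for others. The called share of the others (1.75%) was 9.36% with 1 peak per gene and 3.003% with at least 5 fragments. Limits on q and fragments and the choice of the highest peak per gene select higher folds by construction. Without the arrays 3.57% of overlapping peaks reached the q limit (2 of 56). At 3 fragments a fold of 2.45 has an interval from 0.991 to 5.98, which includes 1.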

Other observations

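Several of the snoRNA peaks without a symbol lay on the gene itself. The highest with a width up to 1 kb was on SNORD140 (chromosome 22, 41073607 to 41073664); its fold was 5.29 (2.86 to 9.12), from 11 fragments, at q of at most 0.05. SNORA79B (chromosome 14, 20323204 to 20323275) stood at 4.396 (1.84 to 9.88) on 4 fragments, also past that limit. SNORD29, in SNHG1 like SNORD22, stood at 3.67 (1.61 to 7.75) on 5 fragments. The U3 snoRNA genes SNORD3B-1 and SNORD3C, which act in early cleavage of the ribosomal RNA precursor and exist in near-identical copies, stood at 3.67 on 5 fragments and 3.33 (1.96 to 5.36) on 15. These genes were named after their values were seen. Of the 86 RefSeq snoRNA and scaRNA genes with a peak up to 1 kb wide, 28 (32.6%, 22.8 to 43.5) had it assigned to no symbol.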
